A study of Mus musculus with 24 samples.

Results

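A group of 58 distal accessible regions of mouse germinal center (GC) B cells, out of 65483 consensus peaks, had lower accessibility in mice with 1 floxed Crebbp allele, whether or not a Kmt2d allele was floxed too, and a mean near the WT level in mice with a floxed Kmt2d allele alone. The members were selected on these same measurements. Fragment counts were divided by the library's total over all peaks and scaled to a common total (CPM), averaged over the mice of a genotype, and set against WT as log2((mean + 0.1)/(WT mean + 0.1)). A member is an autosomal peak with a WT mean of 3 CPM or more, more than 1 kb from any GENCODE transcription start site (TSS) on mm10, with a ratio of at most -0.25 in C, at most -0.25 in CK, and between -0.1 and 0.1 in K. Of the 65483 peaks, 22696 met the limits on position and WT level, and these are called eligible distal peaks here. Because the C, K and CK ratios chose the members, those ratios are given as a description without a test.

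The study profiled GC B cells sorted from the spleens of 17 mice by ATAC-seq, 10 days after immunization with sheep red blood cells (SRBC), with 1 library per mouse. All mice carried Cg1Cre+/-, a Cre recombinase driven by the Ighg1 locus and switched on in B cells that enter the GC. The 4 WT mice had no floxed allele, the 4 C mice were Crebbp fl/+, the 4 K mice were Kmt2d fl/+, and the 5 CK mice were Crebbp fl/+ and Kmt2d fl/+, so each targeted gene kept 1 intact allele. The mice were littermates of 8 weeks on a C57BL/6J background and are described as female, and deletion of the floxed alleles was not measured in these libraries.

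CREBBP is a histone acetyltransferase that marks enhancers, the distal elements that raise transcription of their target genes, and KMT2D is the methyltransferase that places the H3K4 mark of enhancers. Both are frequently mutated in follicular lymphoma and diffuse large B-cell lymphoma, tumours that arise from GC B cells. ATAC-seq uses a transposase that inserts adapters into open DNA, so a peak with fewer fragments was less often open in the cells collected. In bulk libraries, fewer cells with an open site and less opening per cell cannot be told apart.

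Fragments in peaks ranged from 17483706 to 21857738 per library, and the median member held 105 fragments per library. Counting error alone gave a median SE of 0.101 on the log2 ratio of C to WT and 0.0939 on that of CK to WT. Although the mice are described as female, 9 of the 17 libraries carried Y-chromosome signal, with 1450 to 1770 fragments over 12 Y peaks against at most 2 in the other 8. Signal was present in WT 1 and 2, C 1 and 2, K 1, 3 and 4, and CK 1 and 4, and values of the members with and without these libraries are given below. The promoters of the 6 GC B cell markers summed to 391 to 430 CPM for WT, 366 to 400 for C, 382 to 407 for K and 353 to 398 for CK. Among them the promoter of Bcl6, the master regulator of the GC, had 29.7 to 34.1 CPM for WT and 27.2 to 28.4 for C without overlap, but 32.4 to 35.5 for K and 28.0 to 35.7 for CK, and the other 5 overlapped between WT and C. All 5 pan-B markers had promoter peaks, and their summed ranges overlapped between the genotypes. Of 7 T cell markers, Cd3d and Lck had promoter peaks while Cd3e, Cd3g, Cd4, Cd8a and Trac had none, and the sum was 53.0 to 57.7 CPM for WT against 48.1 to 56.0 for C. Of the 5 myeloid markers, Lyz2, Itgam and Mpo had none, and the sum was 5.47 to 7.45 CPM for WT, 6.56 to 8.22 for C, 6.11 to 7.43 for K and 6.07 to 8.48 for CK, with the Csf1r promoter higher in every C mouse (1.67 to 2.33 CPM) than in WT (1.09 to 1.5). The 4 plasma cell markers summed to 219 to 228 CPM for WT, 227 to 241 for C, 228 to 237 for K and 226 to 237 for CK. Among them only the Sdc1 promoter, at 29.7 to 32.4 CPM for WT, was above the WT range in every other mouse. The Prdm1, Irf4 and Jchain promoters overlapped between WT and each other genotype. Jchain reached lower in K (15.84 to 18.97 CPM) and CK (14.58 to 18.92) than in WT (18.13 to 21.98). Of the 4 erythroid markers, 3 had promoter peaks, and their sum was lower in every C and CK mouse than in WT, at 67.1 to 70.2 CPM for WT, 55.2 to 64.1 for C, 57.4 to 72.0 for K and 56.5 to 63.9 for CK. The promoter of the globin gene Hbb-bt lay at 18.7 to 21 CPM for WT, 7.91 to 11.7 for C, 9.16 to 17.5 for K and 8.58 to 10.5 for CK, whereas that of the erythroid regulator Klf1 overlapped between all genotypes. The part of any of these markers in the members' values was not tested. The 5 peaks over Crebbp summed to 45.0 ± 1.37 CPM (SD, n = 4) for WT mice and 44.6 ± 2.81 CPM (SD, n = 4) for C mice, so accessibility at the targeted gene gave no check of the genotype.

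In 12 of the 58 members no C or CK mouse reached the lowest WT mouse, as in 0.832% of all peaks and 1.48% of eligible peaks. The sequences at the centres of 6 of them, the first 6 in the ranking of the fit of C against WT, are shown. In these 6 every C and CK mouse was parted from WT, while single K mice were not always at the WT level. Each is 300 bases about the peak centre on the forward strand of GRCm38 (mm10), taken from RefSeq. Capitals mark matches on either strand to 1 of 16 short motifs of B cell and enhancer transcription factors. The sequences lie at chr11:43343434-43343733, chr8:11181596-11181895, chr11:31807976-31808275, chr1:7077432-7077731, chr5:110800560-110800859 and chr15:67062493-67062792, and each is named by the nearest protein-coding gene.

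Pttg1: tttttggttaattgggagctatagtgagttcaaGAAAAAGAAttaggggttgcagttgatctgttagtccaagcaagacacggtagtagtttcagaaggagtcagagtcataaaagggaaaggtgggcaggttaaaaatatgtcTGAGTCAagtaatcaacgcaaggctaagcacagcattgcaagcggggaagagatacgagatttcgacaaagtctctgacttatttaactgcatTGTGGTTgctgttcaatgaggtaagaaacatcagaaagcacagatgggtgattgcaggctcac

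Col4a1: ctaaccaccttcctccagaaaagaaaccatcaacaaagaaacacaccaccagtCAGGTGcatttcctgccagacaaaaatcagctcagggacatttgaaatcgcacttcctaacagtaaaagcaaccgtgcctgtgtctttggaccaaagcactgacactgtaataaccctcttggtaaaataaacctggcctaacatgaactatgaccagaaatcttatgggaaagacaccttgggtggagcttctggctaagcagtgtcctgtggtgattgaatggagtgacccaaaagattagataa

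Cpeb4: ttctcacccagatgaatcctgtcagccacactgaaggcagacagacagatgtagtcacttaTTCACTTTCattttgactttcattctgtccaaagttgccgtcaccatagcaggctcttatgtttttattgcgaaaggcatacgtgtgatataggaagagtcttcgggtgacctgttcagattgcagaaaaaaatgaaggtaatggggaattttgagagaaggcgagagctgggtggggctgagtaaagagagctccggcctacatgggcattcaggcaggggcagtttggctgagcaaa

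Pcmtd1: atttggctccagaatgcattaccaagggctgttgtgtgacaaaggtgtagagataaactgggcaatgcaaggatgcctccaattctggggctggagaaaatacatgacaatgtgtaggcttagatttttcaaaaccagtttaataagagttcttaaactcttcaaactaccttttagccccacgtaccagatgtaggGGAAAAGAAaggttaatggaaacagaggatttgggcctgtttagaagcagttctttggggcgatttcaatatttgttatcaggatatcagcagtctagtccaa

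Ulk1: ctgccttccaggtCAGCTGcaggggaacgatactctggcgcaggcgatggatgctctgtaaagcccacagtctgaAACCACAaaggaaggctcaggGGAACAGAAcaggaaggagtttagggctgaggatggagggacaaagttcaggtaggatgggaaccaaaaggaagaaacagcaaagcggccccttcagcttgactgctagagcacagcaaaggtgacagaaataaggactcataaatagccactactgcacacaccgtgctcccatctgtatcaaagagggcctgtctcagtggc

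St3gal1: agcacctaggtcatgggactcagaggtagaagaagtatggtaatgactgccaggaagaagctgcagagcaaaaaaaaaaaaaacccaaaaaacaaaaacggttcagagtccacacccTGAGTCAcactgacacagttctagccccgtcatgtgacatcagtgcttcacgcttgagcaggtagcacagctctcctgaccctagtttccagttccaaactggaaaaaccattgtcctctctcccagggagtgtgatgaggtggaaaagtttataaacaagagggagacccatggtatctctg

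The Pttg1, Col4a1, Pcmtd1 and St3gal1 sequences are intergenic, the Ulk1 sequence is intronic in Ulk1, and the Cpeb4 sequence is intronic in the noncoding gene D630024D03Rik. The letters of an IRF site (GAAANNGAA) stood in the Pttg1 and Cpeb4 sequences, those of an ETS-IRF composite element (GGAANNGAA) in the Pcmtd1 and Ulk1 sequences, and those of AP-1 (TGANTCA) in the Pttg1 and St3gal1 sequences. The RUNX letters (TGTGGTT) stood in the Pttg1 and Ulk1 sequences, the E2A letters (CAGGTG) in the Col4a1 sequence, and those of the E-box (CAGCTG) in the Ulk1 sequence. The 6 stretches had no motif in common, and their GC content ran from 41.0% to 52.7%.

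The members were a small group among the distal peaks that closed in C. Of the 22696 eligible peaks, 984 had a C ratio of -0.25 or less and 744 of these also had a CK ratio of -0.25 or less. Among the 744, the K ratio was below -0.1 in 680, including 555 in which it was itself -0.25 or less, within 0.1 of 0 in the 58 members, and above 0.1 in 6. With C and K exchanged in the rule, 1028 peaks closed in K and CK but not in C, and 129 closed in CK alone. These are called K-only and combined-only closing peaks. In the opposite direction, 83 eligible peaks had C and CK ratios of 0.25 or more with K within 0.1 of 0.

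The closing was modest in size. Over the 58 members the C ratio had a median of -0.33 (range -1.01 to -0.25), the CK ratio a median of -0.37 (-0.74 to -0.25) and the K ratio a median of -0.05 (-0.10 to 0.07), where the medians over all eligible peaks were 0.02 in C, -0.06 in CK and -0.05 in K. The K ratio of the members was thus at the eligible median, and it was below 0 in 45 of 58. Summed over the members, accessibility was 567 ± 23.7 CPM (SD, n = 4) for WT. It was 435 ± 25.2 CPM (SD, n = 4) for C and 431 ± 44.3 CPM (SD, n = 5) for CK, while for K it was 550.0 ± 56.7 CPM (SD, n = 4). The single WT mice had sums of 561, 537, 584 and 588 CPM, the C mice 403, 428, 462 and 445, the K mice 519, 501, 551 and 629, and the CK mice 399, 378, 426, 477 and 475. All C and CK sums were below all WT sums, and the K sums lay on both sides of the WT range.

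**Figure D1:**
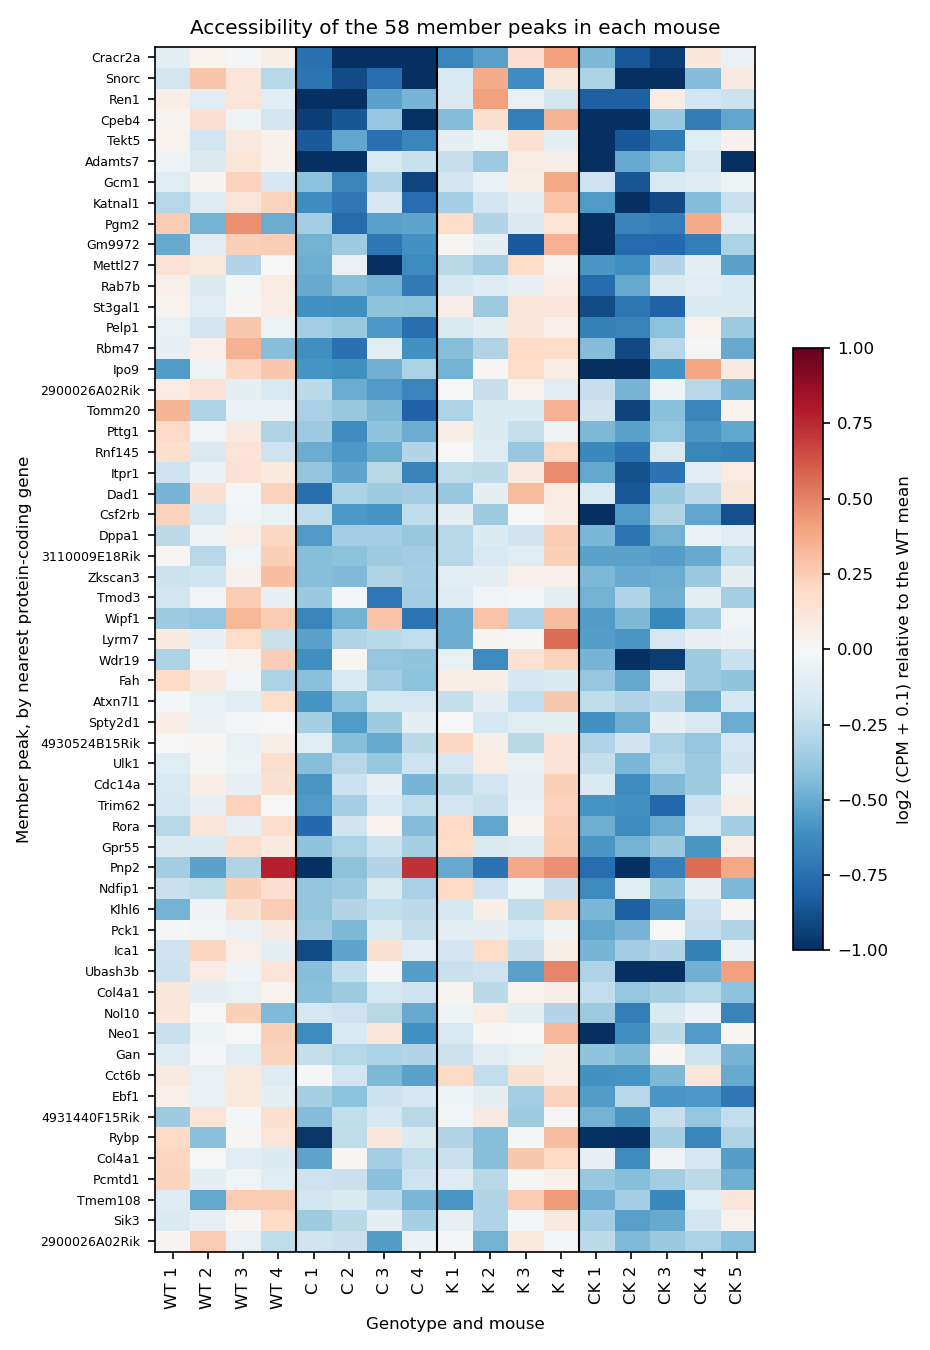
Each row is 1 of the 58 members, named by its nearest protein-coding gene and ordered by its C ratio, each column is 1 mouse, and the colour is log2(CPM + 0.1) relative to the WT mean, cut at -1 and 1. C and CK columns are mostly blue, K 4 is mostly red (median 0.14), and CK 4 and CK 5 are paler (medians -0.25 and -0.22) than CK 1 to 3.

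Mice of 1 genotype differed. The median of the members relative to the WT mean was -0.43, -0.38, -0.33 and -0.36 in the C mice, and -0.48, -0.61, -0.39, -0.25 and -0.22 in the CK mice. In K it was -0.16, -0.14, -0.06 and 0.14, so the K mean near 0 joined 2 mice below WT with 1 above it. Over all eligible peaks the medians of the K mice were -0.11, -0.09, -0.02 and -0.02, so K 1 and 2 were low there too. K 4 was above the highest WT mouse in 22 of the 58 members, a count for which the share over all eligible peaks was not computed. K 1 was below the lowest WT mouse in 24 members, 41.4%, which is near the 43.1% of all eligible peaks. CK 4 and 5 were the highest CK mice in 22 members, which is 37.9%, against 14.7% of all eligible peaks and 13.4% of the K-only closing peaks. In 26 members CK 4 or 5 reached the WT range while CK 1 to 3 were all below it. The share over all eligible peaks was not computed for this count either. In the K-only closing peaks the CK mice were closer together, with medians of -0.48, -0.42, -0.30, -0.42 and -0.40. The combined-only closing peaks, defined above, had CK medians of -0.40, -0.44, -0.31, -0.24 and -0.19. Their K medians were -0.15, -0.09, -0.02 and 0.04. The paler CK 4 and 5 and the higher K 4 were thus not particular to the members.

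**Figure D2:**
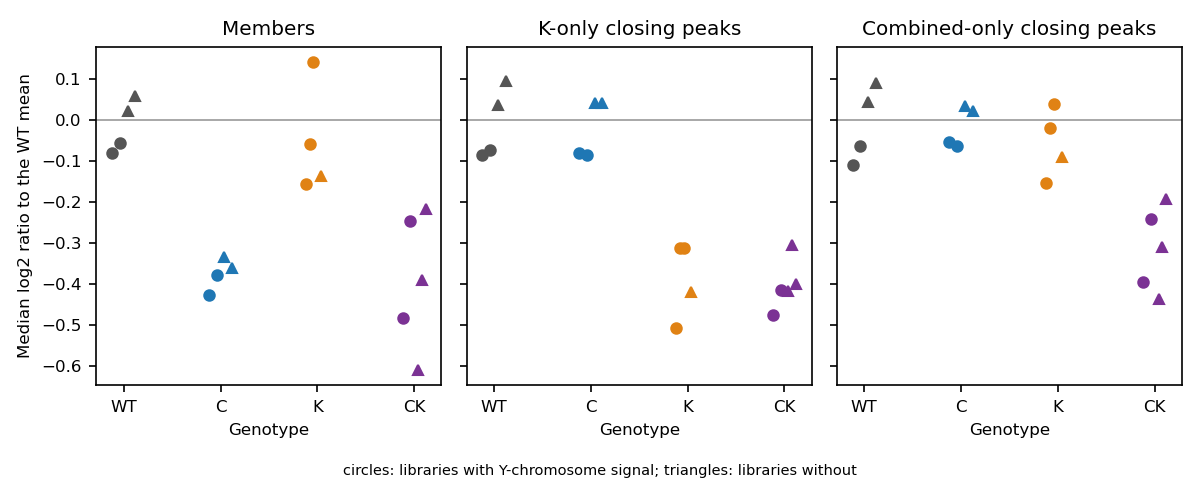
Median log2 ratio to the WT mean in each mouse, over the 58 members, the 1028 K-only closing peaks and the 129 combined-only closing peaks, by genotype, with circles for libraries with Y-chromosome signal and triangles for those without. In the members the C mice sit between -0.43 and -0.33 and the CK mice spread from -0.61 to -0.22. In the combined-only closing peaks the CK mice spread from -0.44 to -0.19, with CK 4 and 5 highest there too.

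Every C mouse was below every WT mouse in 30 of the 58 members, against 1.89% of all 65483 peaks, and every CK mouse was below every WT mouse in 13, against 5.79%. Since the rule used these means, nothing is read from the counts. Both held in 12 members, against 0.832% of all peaks, and these 12 are described in turn, with the values of the single mice.

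Ebf1 encodes the transcription factor that commits cells to the B lineage and keeps B cell enhancers open. A peak in its intron (chr11:44927920-44928846, 15782 bp from the nearest Ebf1 start) had 11.3, 10.4, 11.7 and 10.2 CPM across WT mice, 8.602, 8.14, 9.35 and 9.69 across C mice, 10.5, 10.2, 8.58 and 12.7 across K mice, then 7.34, 8.89, 7.23, 7.26 and 6.58 across CK mice. Both Crebbp-deficient genotypes lay below WT without overlap, CK lowest, while K 3 was below the WT range, K 4 above it and K 1 and 2 at its lower end. Csf2rb encodes the beta chain shared by the receptors for IL-3, IL-5 and GM-CSF, and the intergenic peak 2517 bp from its start (chr15:78322661-78323235) had 7.995, 6.05, 6.66 and 6.505 CPM across WT mice, 5.69, 4.53, 4.495 and 5.696 across C mice, 6.39, 5.302, 6.83 and 7.17 across K mice, then 3.31, 4.55, 5.495, 4.704 and 3.66 across CK mice. Its CK ratio was -0.64, against -0.41 in C and -0.08 in K.

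St3gal1 encodes a sialyltransferase that caps O-linked glycans on lymphocyte surface proteins. An intergenic peak 50778 bp from its start (chr15:67062071-67063214) had 9.14, 8.23, 8.99 and 9.35 CPM across WT mice, 5.83, 5.81, 6.72 and 6.71 across C mice, 9.35, 6.92, 9.74 and 9.72 across K mice, then 4.75, 5.37, 5.06, 8.11 and 8.12 across CK mice. CK 1 to 3 were the lowest of all mice there, and CK 4 and 5 were just under the lowest WT mouse. The peak nearest to Pttg1, the gene of securin, which holds sister chromatids together until anaphase, had 13.3, 11.4, 12.4 and 9.46 CPM across WT mice, 9.03, 7.503, 8.78 and 8.25 across C mice, 12.2, 10.6, 9.9 and 11.3 across K mice, then 8.49, 8.02, 8.92, 7.76 and 8.12 across CK mice. This intergenic region (chr11:43342042-43345125) lay 77861 bp from the Pttg1 start, and the closest annotated start of any kind, at 29336 bp, was that of Mir146, the microRNA gene of miR-146a, a brake on NF-kB signalling.

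Ulk1 is the kinase that starts autophagy. A peak in its intron (chr5:110799912-110801507) had 12.8, 13.7, 13.4 and 15.7 CPM across WT mice, 10.3, 11.4, 10.6 and 12.03 across C mice, 12.4, 14.6, 13.3 and 15.4 across K mice, then 11.8, 10.1, 11.4, 10.8 and 12.1 across CK mice, with the K and WT means equal at 13.9 CPM. Cpeb4 encodes a protein that binds the polyadenylation elements of cytoplasmic mRNAs, and the peak nearest to it (chr11:31807770-31808480, 63731 bp away) had 3.55, 3.93, 3.38 and 3.06 CPM across WT mice, 1.77, 1.88, 2.63 and 1.703 across C mice, 2.54, 3.91, 2.12 and 4.44 across K mice, then 1.49, 1.57, 2.65, 2.102 and 2.402 across CK mice. Here the 4 K mice split, with K 1 and 3 inside the range of the CK mice, K 2 inside that of WT and K 4 above all WT mice. The mean log2 ratio of -0.10 in K therefore stood for no single mouse.

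The 2 members with the most fragments are both among the 12. The peak nearest to Pcmtd1, a relative of the enzymes that repair isoaspartyl residues, lay 10525 bp from its start (chr1:7076767-7078395) and had 61.2, 48.99, 51.5 and 48.3 CPM across WT mice, 45.5, 44.9, 39.4 and 45.5 across C mice, 48.04, 43.4, 53.05 and 54.3 across K mice, then 40.3, 38.97, 41.2, 43.7 and 37.5 across CK mice. Col4a1 encodes a collagen of basement membranes, and an intergenic peak 27893 bp from its start (chr8:11180552-11182938) had 52.6, 45.7, 46.2 and 49.7 CPM across WT mice, 36.3, 37.97, 43.04 and 42.05 across C mice, 49.4, 40.2, 49.8 and 50.9 across K mice, then 40.8, 37.02, 38.6, 39.7 and 36.5 across CK mice. Their ratios were -0.26 and -0.29 in C and -0.38 and -0.33 in CK. The other Col4a1 member, in an intron (chr8:11203132-11204110), was not parted from WT in every mouse.

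Chromatin regulators are nearest to another pair. Atxn7l1 is a relative of the SAGA acetyltransferase subunit gene Atxn7, and the peak nearest to it (chr12:33127992-33128885), intronic in the noncoding genes F730043M19Rik and Gm16267, had 8.099, 7.76, 7.57 and 9.29 CPM across WT mice, 5.4, 6.13, 7.23 and 7.24 across C mice, 6.91, 7.65, 6.88 and 9.86 across K mice, then 6.86, 6.61, 6.797, 5.805 and 7.26 across CK mice. Spty2d1 encodes a histone chaperone, and the intergenic peak nearest to it (chr7:47013426-47013712, 287 bp long) had 4.18, 3.83, 3.95 and 3.99 CPM across WT mice, 3.15, 2.65, 3.1 and 3.73 across C mice, 3.999, 3.52, 3.65 and 3.75 across K mice, then 2.59, 2.82, 3.71, 3.55 and 2.803 across CK mice. In both, the highest C or CK mouse came close to the lowest WT mouse.

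The last pair are a peak near 4930524B15Rik and a peak within Adamts7, which encodes a secreted metalloprotease. The 4930524B15Rik peak (chr11:31948055-31949969) had 7.37, 7.398, 6.99 and 7.65 CPM across WT mice, 6.74, 5.44, 5.17 and 6.07 across C mice, 8.52, 7.65, 6.04 and 8.14 across K mice, then 5.95, 6.39, 5.88, 5.61 and 6.52 across CK mice. The Adamts7 peak, in an intron (chr9:90181467-90182599), had 30.7, 28.6, 34.5 and 32.6 CPM across WT mice, 11.6, 13.8, 28.3 and 27.04 across C mice, 26.9, 24.6, 33.5 and 33.04 across K mice, then 12.3, 22.2, 23.8, 28.2 and 13.1 across CK mice. In the Adamts7 peak the Crebbp-deficient mice fell into a lower group of C 1, C 2, CK 1 and CK 5, between 11.6 and 13.8 CPM, and a higher group of C 3, C 4 and CK 2 to 4, between 22.2 and 28.3 CPM. Over the 12 peaks, some K mouse reached the WT range in all 12, and the CK mean was below the C mean in 7.

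**Figure D3:**
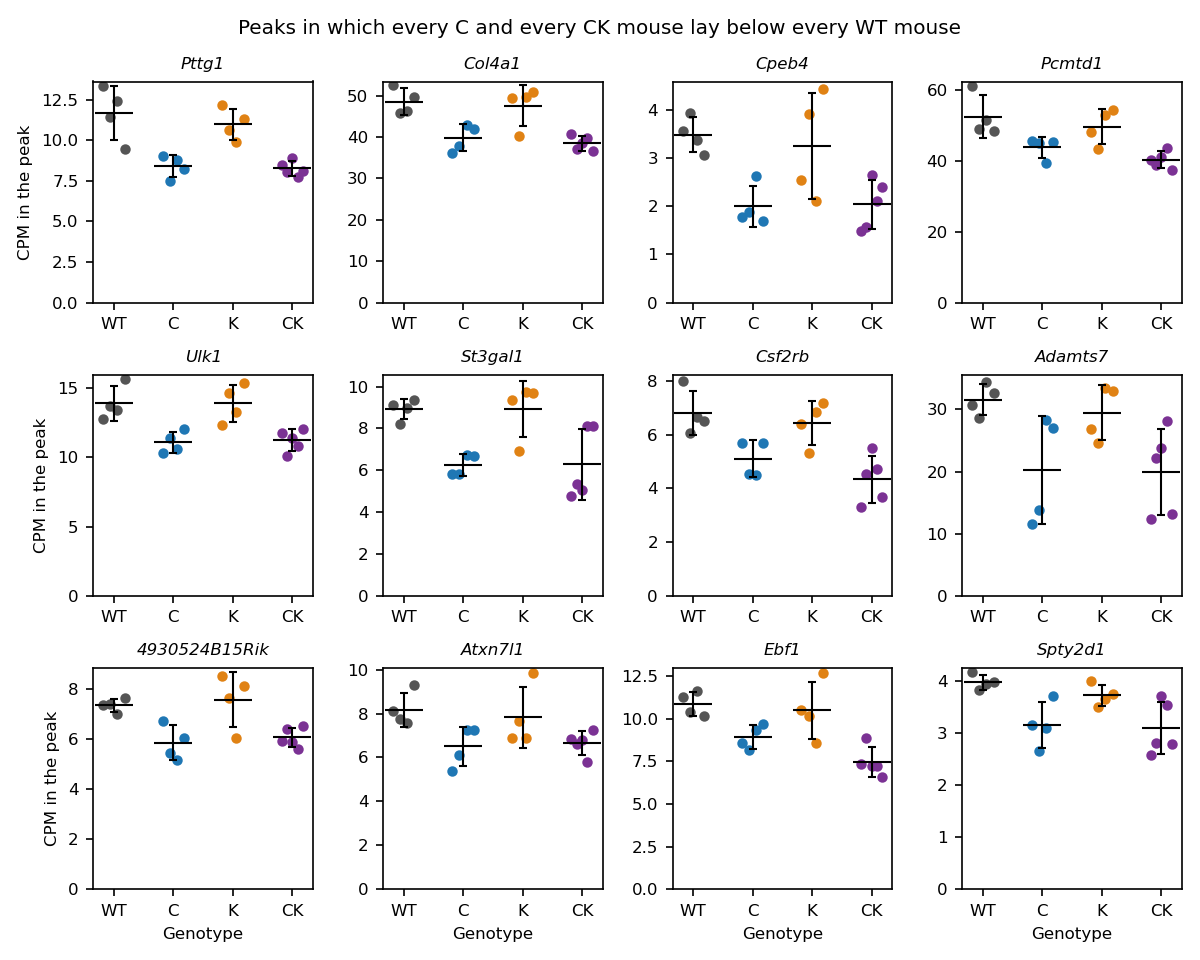
CPM in each mouse (points), with the mean and SD (bars, n = 4 for WT, C and K and n = 5 for CK), for the 12 members in which all C and CK mice lay under all WT mice. The C and CK points sit under all WT points in each panel, and in the Adamts7 panel they form 2 levels.

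The 3 members with the lowest C ratios, near Cracr2a, Snorc and Ren1, all had a CK mouse in the WT range, and they and the Rab7b peak were picked out after their values were seen. An intronic peak of Cracr2a (chr6:127614449-127615207), which encodes a calcium sensor of lymphocytes, had 6.69, 7.29, 7.04 and 7.43 CPM across WT mice, 4.21, 3.52, 3.15 and 3.03 across C mice, 4.47, 4.86, 7.99 and 9.44 across K mice, then 5.18, 3.902, 3.66, 7.66 and 6.81 across CK mice. Its C ratio was -1.01, and the mice CK 1 to 3 and K 1 and 2 were low as well, while CK 4 and 5 and K 3 and 4 were at WT or above. The Rab7b peak (chr1:131702105-131703754), in an intron of a gene for a small GTPase of endosome traffic, had 15.3, 13.3, 14.6 and 15.6 CPM across WT mice, 10.3, 10.9, 10.5 and 8.94 across C mice, 12.98, 13.4, 13.9 and 15.4 across K mice, then 8.59, 10.3, 13.3, 13.7 and 13.2 across CK mice. In the peak near Ren1, the renin gene (chr1:133347710-133348775), the values were 3.97, 3.52, 4.19 and 3.499 CPM across WT mice, 1.62, 1.33, 2.58 and 2.71 across C mice, 3.43, 5.08, 3.6 and 3.33 across K mice, then 2.11, 2.11, 4.001, 3.303 and 3.26 across CK mice, so CK 3 was in the WT range and CK 4 and 5 just under it. The peak near Snorc, a gene of a cartilage proteoglycan (chr1:87466909-87468626), had 3.03, 4.24, 3.81 and 2.84 CPM across WT mice, 2.06, 1.83, 2.02 and 1.28 across C mice, 3.12, 4.52, 2.22 and 3.75 across K mice, then 2.78, 1.63, 1.69, 2.55 and 3.72 across CK mice.

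A peak near Pnp2, which encodes a purine nucleoside phosphorylase, met the rule without a difference common to its mice. It lies at chr14:50976273-50977027 and had 5.22, 4.55, 5.38 and 11.48 CPM across WT mice, 0, 4.99, 5.42 and 11.1 across C mice, 4.67, 3.96, 8.68 and 9.16 across K mice, then 3.89, 0, 4.097, 9.86 and 8.75 across CK mice. It held no fragment in C 1 and CK 2, and in the other mice it stood between 3.89 and 5.43 CPM or between 8.68 and 11.48 CPM. It was the one member with a library at 0, and it had the widest range within each genotype. The highest mouse was at least 2-fold above the lowest in 1 member among WT mice, 6 among C, 7 among K and 9 among CK, which is 1.72%, 10.3%, 12.1% and 15.5% of the members, against 0.665%, 1.02%, 1.45% and 2.92% of the eligible peaks.

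The limits of the rule cut through a continuum. At the C limit, an intronic peak of 2900026A02Rik was just inside at -0.25 and a peak near Babam2 just outside at -0.24. At the CK limit, peaks near Gcm1 (-0.25 in CK, -0.56 in C) and Timd2 (-0.25 in CK, -0.46 in C) fell on either side. The Adamts7 peak was just inside the lower K limit at -0.099, and a peak near Vrk2 was just outside it at -0.10. The highest K ratio of a member was 0.073, near Lyrm7, and the nearest peak above the upper K limit was near Nuak2, at 0.11 in K, -0.73 in C and -0.35 in CK. At the limit on WT level, the peak near Dad1 was inside at 3.21 CPM and one near Gpr176 outside at 2.99 CPM. By distance, the Sik3 peak was inside, 1166 bp from a TSS, and an Hmcn2 peak outside at 644 bp.

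In edgeR's quasi-likelihood fit over all 65483 peaks, none of the 58 members was a differentially accessible peak (DAP, adjusted p under 0.01) in C, where 0.101% of all peaks were lower DAPs, and 48 members were lower at an unadjusted p under 0.05, as were 4.26% of all peaks. DESeq2 called 4 members lower in C, with 0.159% of the peaks it tested. With the mouse numbers of the labels as a block, 5 members were lower DAPs in C, against 0.203% of all peaks. In CK, 8 members were lower DAPs, against 3.3% of all peaks. They became 24 with the block, against 5.25%, and 16 when CK 5 was left out, against 3.54%. CK 5 is the only mouse with its number, so in the block fit it added nothing to CK against WT. The 24 therefore join the block with the loss of CK 5. The 8 of the fit without a block were the Pcmtd1, Cpeb4, Pttg1, Ebf1, Csf2rb and intergenic Col4a1 peaks among the 12 above, with peaks of 3110009E18Rik and near Rnf145. Against K, none of the members was lower in CK by edgeR, where 0.00458% of all peaks were, with 39 members lower at an unadjusted p under 0.05, as were 3.21% of all peaks, and 1 called by DESeq2, with 0.0409% of the peaks it tested. Against C, none of the members differed in CK by edgeR, where 1.68% of all peaks did, and at an unadjusted p under 0.05 the Rab7b, Ren1 and Cracr2a peaks were higher, where 11.1% of all peaks were, and the Ebf1 peak lower, where 10.1% were, so both counts were under the background. The CK ratio minus the C ratio had a median of -0.01 over the members, from -0.37 to 0.63. All these contrasts enter the rule, and the counts are given as a description.

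Each mouse was also left out in turn, the peaks were chosen again on the other 16, and the left-out mouse was read in them. The WT mean it is set against took part in that choice, so values below 0 are favoured in any left-out mouse, and these medians are a description. Left-out C mice had medians of -0.40, -0.34, -0.23 and -0.33 over 49 to 68 peaks, where all eligible peaks had medians within 0.04 of 0 in the same mice. Left-out CK mice had medians of -0.46, -0.59, -0.38, -0.21 and -0.16.

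Left-out K and WT mice were partly as low as CK 4 and CK 5. K 1, 2 and 3, when left out, had medians of -0.28, -0.25 and -0.17, and K 4 had 0.07, where the medians of all eligible peaks were -0.11, -0.09, -0.02 and -0.02. In 65 of 73 peaks K 1 was below 0. WT 1 and WT 2, when left out, had medians of -0.19 and -0.11, and WT 3 and WT 4 had 0.01 and 0.04. Between 27 and 56 of the 58 members met the rule again when 1 mouse was left out, fewest without K 4, and 3 members met it in all 17 of these choices.

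The 3 are the peaks near Pelp1, Zkscan3 and Tekt5. Pelp1 encodes a coactivator of nuclear receptors, and the peak near it (chr11:70412705-70412916) had 3.97, 3.67, 5.09 and 4.04 CPM across WT mice, 3.297, 3.203, 2.79 and 2.45 across C mice, 3.79, 3.91, 4.55 and 4.35 across K mice, then 2.59, 2.601, 3.13, 4.304 and 3.26 across CK mice. Zkscan3 encodes a zinc finger repressor of autophagy genes, and its nearest peak (chr13:21414379-21415950) had 7.52, 7.61, 9.04 and 10.8 CPM across WT mice, 6.499, 6.41, 7.08 and 6.92 across C mice, 8.101, 8.204, 9 and 9.07 across K mice, then 6.38, 6.12, 6.17, 6.76 and 8.24 across CK mice. Tekt5 encodes a filament protein of sperm tails, and its intronic peak (chr16:10383863-10384975) had 11.4, 9.78, 11.99 and 11.48 CPM across WT mice, 6.21, 7.78, 6.61 and 7.08 across C mice, 10.5, 10.8, 12.3 and 10.5 across K mice, then 5.42, 6.18, 6.797, 10.3 and 11.5 across CK mice. In each, all 4 C mice were below all WT mice, the K mice were within or near the WT range, and CK 4 or CK 5 reached the WT range. The Tekt5 peak lies 6.17 Mb from Crebbp on chromosome 16.

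Within the libraries that carried Y-chromosome signal, 2 C mice against 2 WT mice gave a median of -0.38 over the members. In the libraries without it, 2 C against 2 WT mice gave -0.39. For CK the medians were -0.31 with the signal (2 mice) and -0.48 without it (3 mice). The members were chosen on these same mice, which fixed the direction of both medians, so they give only the size in each set. For K the values were 0.05 in 3 mice with the signal and -0.22 in the 1 mouse without it. Applied to the libraries with the signal alone, the rule chose 93 peaks, 17 of them members, and applied to the others it chose 110 peaks, 5 of them members.

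Peaks around the members had lower medians than all eligible distal peaks in C and CK, with a smaller difference in K. The eligible median in C was 0.02. The 214 other distal peaks within 50 kb of a member and with a WT mean of 3 CPM or more had a median C ratio of -0.08, and 22% of them were at -0.25 or less, against 4.34% of all eligible distal peaks. Around the K-only closing peaks that share was 4.31%, and around the combined-only closing peaks 3.52%. The median ratios of the 214 peaks were -0.10 in K and -0.18 in CK, against -0.05 and -0.06 over all eligible distal peaks. The median K ratio around the K-only closing peaks was -0.10 too. The 76 promoter peaks within 50 kb of a member had a C ratio of -0.25 or less in 11.8%, against 1.25% of all promoter peaks at that level. These shares come from the same mice as the rule and are not tested.

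At 5 members with 2 or more neighbours the median C ratio of the neighbours was -0.5 or lower, and the neighbours are given by mouse. Around the Pgm2 member (chr5:64069980-64070669), 5 neighbours had medians of -1.82, -1.61, -2.09 and -1.80 in the C mice and -1.52, -1.53 and -1.58 in CK 1 to 3, but 0.13 and -0.03 in CK 4 and 5. The member itself had 5.02, 3.001, 5.805 and 2.95 CPM across WT mice, 3.297, 2.42, 2.84 and 2.87 across C mice, 4.78, 3.404, 3.81 and 4.63 across K mice, then 1.92, 2.601, 2.56, 5.46 and 3.89 across CK mice, so it followed the same mice less sharply. The neighbour with the lowest C ratio there had means of 4.53 CPM for WT, 0.0720 for C, 5.21 for K and 2.04 for CK.

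Around the Cpeb4 member, 6 neighbours had medians between -1.16 and -1.05 in all 4 C mice and between -1.25 and -1.01 in all 5 CK mice. K 3 was as low there, at -1.05, while the other K mice were between -0.24 and -0.05. Around the Dppa1 member (chr11:46634926-46637612), the medians of 3 neighbours lay between -1.03 and -0.65 in C, and K 3, at -0.86, was in that range while CK 4, at -0.07, was not. CK 5 was at -0.60 in these neighbours and at -0.10 in the member. Around the Cracr2a member, 2 neighbours had medians of -1.02 to -0.68 in C, with K 1 (-0.63) and K 2 (-0.45) low and CK 4 (-0.16) and CK 5 (-0.08) near WT, the same mice as in the member. Around the Rab7b member, 5 neighbours had medians of -0.52 to -0.27 in the C mice, and one of them had a higher mean in C (21.9 CPM) than in WT (12.6 CPM). There the CK mice did not follow the member: CK 2 was at -0.50 in the member and -0.05 in the neighbours, while CK 3 and CK 5 were at -0.15 in the member and at -0.38 and -0.40 in the neighbours. At Cpeb4, Dppa1, Pgm2 and Cracr2a single K or CK mice stood at the level of another genotype over several peaks at once. What set the levels of single mice at these loci and at the Adamts7 and Pnp2 peaks, a difference in genetic background between mice included, was not tested. The 5 loci were singled out after their values were seen. Of the 55 members with a neighbour, 48 had a neighbour median below 0 in C, 37 in K and 46 in CK, and in 32 the C median was within 0.1 of 0. Locus medians of this kind were not computed around other peaks. Counted by single peak, 69.6% of the 214 distal neighbours had a C ratio below 0, against 44.9% of all eligible distal peaks. The K shares were close together, at 67.8% against 62.5%, and the CK shares were 79.9% against 61.9%.

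**Figure D4:**
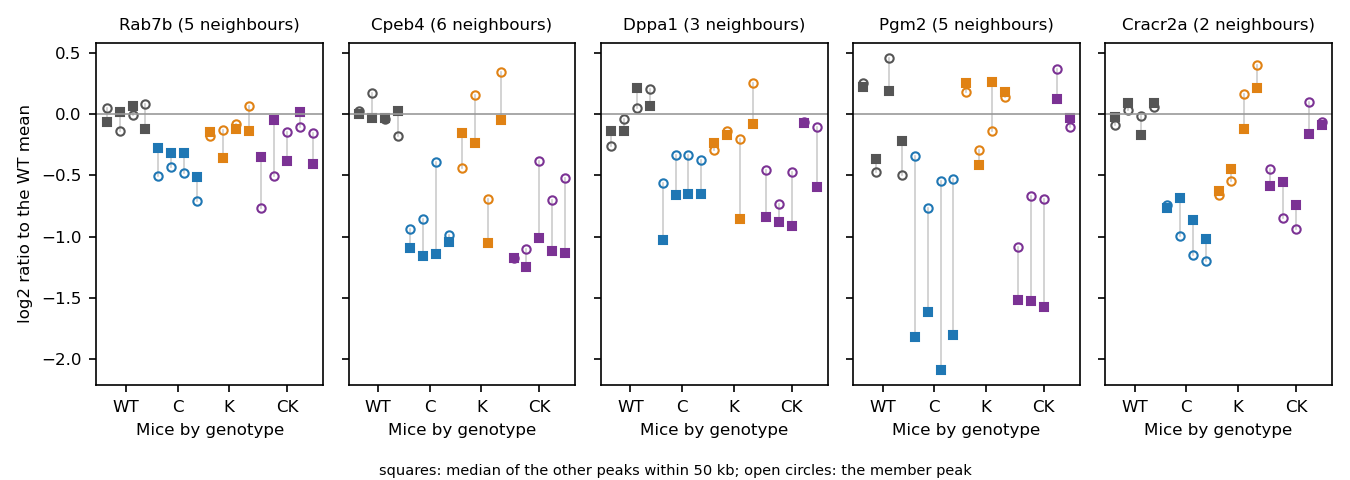
log2 ratio to the WT mean in each mouse, by genotype, at the 5 loci whose neighbours had a median C ratio of -0.5 or lower, with squares for the median of the other peaks within 50 kb, open circles for the member, and grey lines joining the values of 1 mouse. At Pgm2 the C squares are between -2.09 and -1.61 while CK 4 and CK 5 sit at 0.13 and -0.03, and at Cpeb4 the square of K 3 (-1.05) is level with the C and CK squares.

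The members were unevenly spread over the genome. Chromosome 11 held 11 (19% against 7.96% of eligible peaks), chromosomes 5 and 9 held 8 each and chromosome 1 held 7. These 4 chromosomes, picked because they held the most members, had 34 members, 58.6%, against 26.7% of eligible peaks and 25.5% of the K-only closing peaks. That choice favoured a high pooled share, which is given as a description. Chromosomes 10, 17 and 19 held none. On chromosome 11, 9 members lay between 29 and 55 Mb, among them those of Cpeb4, Pttg1, Rnf145, Ebf1 and Dppa1, while the other 326 eligible peaks of that stretch had a median C ratio of 0.00. The stretch too was set by where the members lay. Of the chromosomes with the targeted genes, 15 and 16 held 2 members each. Those of chromosome 16 were 6.17 Mb (Tekt5) and 15.8 Mb (Klhl6) from Crebbp, and those of chromosome 15 were 31.8 Mb (St3gal1) and 20.5 Mb (Csf2rb) from Kmt2d.

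**Figure D5:**
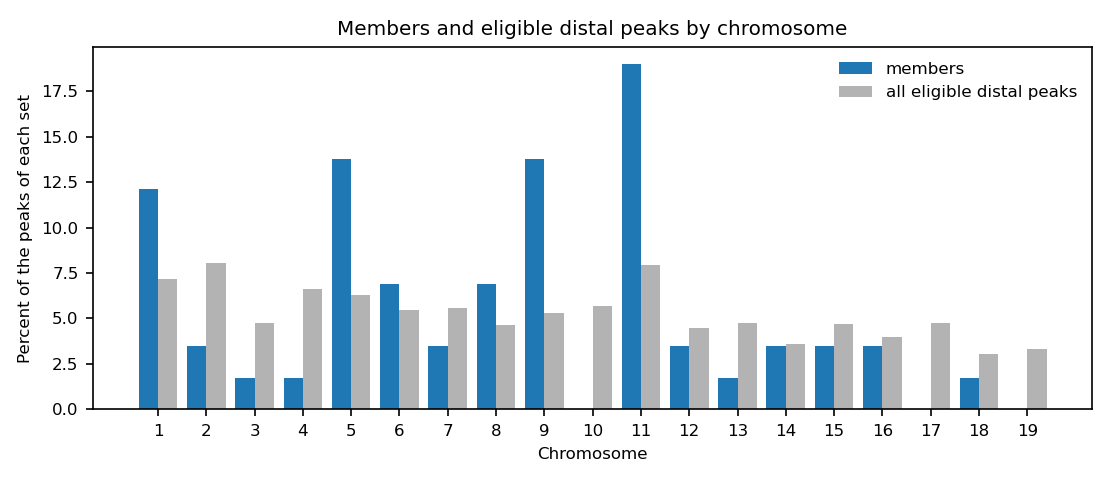
Percent of the 58 members (blue bars) and of the 22696 eligible distal peaks (grey bars) on each autosome. The blue bar is highest on chromosome 11, at 19% against 7.96%, and absent on chromosomes 10, 17 and 19.

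The 58 members were nearest to 56 protein-coding genes, 47 of which had a promoter peak, 77 peaks in all. Their median log2 fold change in the edgeR fit, which is normalized otherwise than the ratio of CPM means, was -0.07 in C, with 61 of 77 below 0, 0.05 in K and -0.02 in CK, where all 16179 promoter peaks had medians of -0.01, 0.06 and 0.06. Below 0 in C were also 8901 of the 16179. For genes nearest to the K-only closing peaks 779 of 1208 promoter peaks were, and for the combined-only closing peaks 134 of 204, each with a median of -0.03. In C 1 of the 77 was a DAP, against 0.136% of all promoter peaks. It was a promoter peak of Mettl27 (chr5:134932152-134933874), a methyltransferase-like gene, with 22.5 ± 1.5 CPM (SD, n = 4) for WT, 17.3 ± 1.54 CPM (SD, n = 4) for C and a log2 fold change of -0.41 (SE 0.074). The Mettl27 member lies beside it, at chr5:134934738-134934974, and had 4.29, 4.14, 3.14 and 3.88 CPM across WT mice, 2.72, 3.66, 1.76 and 2.45 across C mice, 3.17, 3.01, 4.39 and 3.93 across K mice, then 2.54, 2.49, 3.13, 3.603 and 2.63 across CK mice. This call was lost when library totals replaced the normalization factors and when WT 1, 2 or 3 or C 1, 3 or 4 was left out. In CK 6 of the 77 were DAPs, against 10.1% of all promoter peaks. Mettl27 and Klhl6, which encodes a ubiquitin ligase adaptor of B cells, were lower, and Rnf145, Ica1, Neo1 and Rora were higher. The Ica1 peak called had means of only 0.525 CPM for WT and 1.26 for CK, and the stronger Ica1 promoter peaks were not called. The Neo1 peak was also low, at 1.85 CPM for WT and 3.22 for CK. Rnf145 had 3 promoter peaks. The one called higher in CK had means of 7.25 CPM for WT and 11.45 for CK, while the one at the start nearest to the member had 57.96 and 57.92 CPM, a log2 fold change of -0.01 (SE 0.0445).

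Gene lists of GC biology held 1 member. Of 6 gene lists (GC factors, T-cell help and antigen presentation, B-cell receptor signalling, plasma and memory fate, NF-kB and survival, and chemokine and cytokine signalling), the eligible distal peaks nearest to their genes included 1 member, that of Ebf1 among 238 peaks of the GC factors, and none among 97, 149, 109, 80 and 114 peaks of the other lists. This is 0.127% of the 787 list peaks, against 0.256% of all eligible peaks. None of the list peaks was a lower DAP in C, where 0.176% of eligible peaks were. In CK 19, 10, 10, 5, 4 and 7 peaks of the lists, in the order above, were lower DAPs, 6.99% in all against 6.89% of eligible peaks. The list medians of the C ratio ran from -0.01 to 0.04. At Ebf1 itself, 29 eligible peaks had medians of -0.01 in C, -0.05 in K and -0.09 in CK, with 16 below 0 in C. The member had -0.28 in C and -0.54 in CK, and the limits of the rule put it below these medians. Another of the 29 (chr11:44648598-44649942) had -0.25 in C and -0.49 in CK. Its K ratio of -0.32 kept it out of the members.

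By position and base composition the members were close to other distal peaks. Of the 58, 28 were intronic, 2 exonic and 28 intergenic. The intergenic share was 48.3% (95% exact binomial interval 35 to 61.8), against 38.4% of eligible peaks. Within 10 kb of a TSS lay 34 members (58.6%), against 55.6%. The median length was 1090 bp against 1110 bp, and the median GC content 47.6% (95% interval 45.6 to 48.1) against 46.8%. Repeats took a median of 16.2% of the bases, against 16.7%. The median WT level was 6.18 CPM, below the 8.09 CPM of all eligible peaks.

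Motif letters were searched on both strands in the central 300 bases, and with 58 members the intervals are wide. The AP-1 letters were in 9 members, 15.5% (exact binomial interval 7.35 to 27.4), against 10.4% of eligible peaks, and the E2A letters in 16, 27.6% against 25.1%. The ETS-IRF composite was in 12.1% against 12%, IRF in 12.1% against 11.9%, RUNX in 6.90% against 9.34% and the E-box in 17.2% against 18.4%. EBF1 (CCCNNGGGA) was in 8.62% against 5.58%, CTCF (AGGGGGC) in 6.90% against 7.08%, and MEF2 (CTAAAAATA) in 1.72% against 0.855%. PU.1 (GAGGAAGT) was in 1.72% against 6.70%, the octamer (ATGCAAAT) in 1.72% against 5.08%, STAT (TTCNNNGAA) in 3.45% against 8.62%, and BCL6 (TTCCNNGAA), whose letters all meet the STAT pattern, in 1.72% against 4.04%. FOXO (GTAAACA), NF-kB (GGGANTTTC) and the cAMP response element (TGACGTCA) were in no member, which with 58 peaks allows shares up to 6.16% by the exact binomial interval, against 4.37%, 1.31% and 0.366% of eligible peaks. The eligible share lay inside the members' interval for each of the 16 motifs in this window, and 19 members held none of them. Over the whole peak the PU.1 letters were in 4 members, 6.90% (interval 1.91 to 16.7), against 18.2% of eligible peaks, which lay outside the interval, and the other 15 eligible shares lay inside.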

How the data were processed

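ATAC-seq libraries of sorted live splenic GC B cells, 1 per mouse, were processed by the authors with an nf-core pipeline on mm10, and the deposited values are unnormalized counts of fragments over a consensus peak set, made with featureCounts v2.0.1, run so that a fragment overlapping several peaks counted for each, with a required overlap fraction of 0.2. The table held 17 of 24 labelled samples, and the other 7 were not analysed here. Groups followed the genotype labels. CPM was computed from column totals. All 65483 peaks with 10 or more summed counts were tested on the raw counts with edgeR 4.0.16 (TMM factors, quasi-likelihood test, all 17 libraries in 1 fit, Benjamini-Hochberg adjustment, adjusted p under 0.01), with DESeq2 1.42.0 as an alternative, and the fit was tested on simulated data. TSSs were from GENCODE M21 and bases from RefSeq GRCm38.p6. The peaks described singly were the 12 with the lowest p in C among the members in which all C and CK mice were below all WT mice, which were all such members, and others are named as chosen after their values were seen. The members, gene lists, marker lists and motifs were chosen with earlier results of these data known. Mice with the same number in the labels had r of 0.11 to 0.32 among WT, C and K, over 12 pairs each above 0.1. With CK r was -0.02 to 0.23. Pairs with different numbers had r of -0.34 to 0.38, and 9 of 17 libraries were closest to a library with the same number. This check therefore did not settle whether the numbers pair the mice, and a fit with the number as a block was made as an alternative. Intervals cover counting error only.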

Additional observations from a re-analysis of the deposited data

Results flagged for a closer look

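The mice of each genotype were compared in 20 member peaks and in the sum over all members, which made 84 groups of 4 or 5 mice. The 20 were the 12 peaks described in turn and others picked by hand. In 5 of the 84 groups 1 mouse stood far from the others of its genotype, and chance alone gives about 1 in 20. K 2 was the distant mouse in 3 of these 5. It had 40.2 CPM in the intergenic Col4a1 peak, where the other K mice had 49.4 to 50.9, and 6.92 CPM in the St3gal1 peak, where they had 9.35 to 9.74. In the Ren1 peak it was higher, at 5.08 CPM against 3.33 to 3.60. C 3 had 39.4 CPM in the Pcmtd1 peak, where the other C mice had 44.9 to 45.5. WT 4 had 11.48 CPM in the Pnp2 peak, where the other WT mice had 4.55 to 5.38.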

How the results depend on the processing

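Under the alternatives, 163 values kept their direction and stayed close to the value reported, 36 moved further, and in 7 the Mettl27 promoter peak was no longer called in C. Closeness of a count does not mean the same peaks: with the median of the mice in place of the mean the rule gave 60 peaks, 31 of them members. The 58 members became 17 with a WT mean of 10 CPM or more, 93 in the libraries with Y-chromosome signal and 110 in those without, and leaving out 1 mouse gave 35 to 73, with 35 without K 4. Of the 58, 17 were among those 93 peaks and 5 among those 110. The analyses by Y-chromosome signal were chosen after seeing the data.

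For lower DAPs among the members in C, 0 by edgeR, DESeq2 gave 4, the replicate block 5, an adjusted p under 0.05 gave 5, Y-chromosome signal as a covariate 1, and leaving out 1 mouse 0 to 1. In CK, 8 became 24 with the replicate block, 26 at 0.05, and 6 to 16 when 1 mouse was left out, with 16 without CK 5. The block fit also drew nothing from CK 5 for this contrast. For CK against K DESeq2 gave 1. The block moved no other count by over 1.5 times. Of the promoter peaks of the nearest genes, the 1 called in C became 0 with library totals, 2 over genes within 100 kb and 0 to 2 when 1 mouse was left out, and the 6 called in CK became 18 within 100 kb and 4 to 7 when 1 mouse was left out.

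Over the whole peak rather than its central 300 bases, the share of members with a motif was 6.90% for PU.1, 1.72% for the cAMP response element and for NF-kB, 5.17% for MEF2, 12.1% for CTCF, 34.5% for the ETS-IRF composite and for IRF, 27.6% for STAT, 13.8% for BCL6, 46.6% for AP-1, 12.1% for the octamer, 63.8% for E2A, 50% for the E-box, 31.0% for RUNX, 24.1% for EBF1 and 15.5% for FOXO.

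Replicates are single mice of a genotype. Members with a WT mean under 5 CPM numbered 22, and the highest counting SE of a member's log2 ratio in C was 0.148, so for such members mice could not be ranked by small differences.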

Other observations

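The limits on position and level kept out other peaks with the same ratios. Within 1 kb of a TSS, 10 peaks with a WT mean of 3 CPM or more met the limits on C, K and CK, and 147 distal peaks met them with a WT mean under 3 CPM.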
